A study of Mus musculus with 5 samples.

Results

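The genes described here are the vitamin C transporter genes Slc23a1 and Slc23a2 and the TET enzyme genes Tet1, Tet2 and Tet3, taken by symbol. The rule kept every array feature whose annotation gives exactly 1 symbol and that symbol is one of these names. It found 8 features of 5 genes among 21789 features with 1 symbol: 3 for Tet1, 2 for Tet3 and 1 for each other gene. The set was chosen by what earlier results of these data had shown of this contrast, with Slc23a1 among the larger rises by its log2 difference, so the differences of all 5 genes between genotypes are given as descriptions, without p-values. Expression was measured on whole-transcript arrays in 3 Mkl2-/- and 2 wild-type cultures of C57BL/6 mouse embryonic stem cells that had not been differentiated. Both genotypes grew on gelatin and mouse embryonic fibroblast feeders in medium with fetal bovine serum and leukaemia inhibitory factor (LIF), and most feeders were removed by a 1 h attachment step before lysis. Mkl2, now named Mrtfb, encodes a myocardin-related partner of serum response factor (SRF), and the series asks about its part in TGF-beta signalling. Values are log2 expression after RMA, and every difference is Mkl2-/- minus wild type.

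TET enzymes oxidise methylated cytosine in DNA, the first step of active demethylation. They belong to the dioxygenases that use iron and 2-oxoglutarate, and vitamin C (ascorbate) supports them by keeping the iron reduced. Cells take up ascorbate itself through the sodium-coupled transporters SVCT1 (Slc23a1), best known from gut, kidney and liver epithelia, and SVCT2 (Slc23a2), which is widespread. Its oxidised form, dehydroascorbate, enters through glucose transporters and is reduced inside the cell. Tet1 and Tet2 are the main family members of embryonic stem cells, while Tet3 is best known from the oocyte, the zygote and neurons.

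The regions just upstream of the TET genes are shown first because these genes did not differ in the same direction. Each run holds the 250 bases before a RefSeq transcription start (GRCm38.p6), 5′ to 3′ on the gene's strand, with CpG dinucleotides, the sites of cytosine methylation, in capitals. The windows lie on the minus strand at chr10:62887325-62887574 (Tet1), chr3:133544391-133544640 (Tet2) and chr6:83441679-83441928 (Tet3).
Tet1: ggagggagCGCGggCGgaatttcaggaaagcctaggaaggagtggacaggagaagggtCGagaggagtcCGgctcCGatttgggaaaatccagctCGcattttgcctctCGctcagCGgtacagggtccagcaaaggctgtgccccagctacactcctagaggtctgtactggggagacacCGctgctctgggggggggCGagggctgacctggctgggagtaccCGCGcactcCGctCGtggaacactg
Tet2: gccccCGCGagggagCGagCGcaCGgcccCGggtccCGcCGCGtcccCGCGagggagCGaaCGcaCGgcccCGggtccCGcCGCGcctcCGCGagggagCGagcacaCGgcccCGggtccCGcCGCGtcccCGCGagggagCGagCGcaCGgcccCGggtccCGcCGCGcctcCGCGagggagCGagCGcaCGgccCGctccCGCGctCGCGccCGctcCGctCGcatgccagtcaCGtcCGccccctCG
Tet3: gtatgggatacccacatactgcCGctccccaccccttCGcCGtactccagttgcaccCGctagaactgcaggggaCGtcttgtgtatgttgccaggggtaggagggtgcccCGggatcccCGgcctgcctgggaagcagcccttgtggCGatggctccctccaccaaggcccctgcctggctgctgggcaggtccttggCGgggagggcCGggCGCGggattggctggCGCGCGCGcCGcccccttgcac
The Tet2 window held 51 CpG dinucleotides, the Tet3 window 17 and the Tet1 window 15, against a median of 6 over 32851 such windows. Fewer CpG dinucleotides than in the Tet2 window were found in 99.9% of windows, against 76.5% for Tet3 and 72.7% for Tet1. Slc23a2 has 2 windows, with 31 and 13 CpG dinucleotides; 4 of the 5 genes matched the promoter table, Slc23a1 being the other. A CArG box, the sequence SRF binds, searched by name as CC, 6 bases of A or T and GG (a pattern that reads the same way on both strands), was in 1.47% of all windows and in 0 of the windows of Tet1, Tet2, Tet3 and Slc23a2.

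Before the members, the targeted gene and the identity of the cells were checked. Mrtfb read 9.32, 9.32 and 9.09 in Mkl2-/- cells, against 9.80 and 9.75 in wild-type cells (difference -0.53 ± 0.09 (SE), limma adjusted p = 0.048), and no source says whether its feature lies in the deleted part. All 12 embryonic stem cell markers lay above the background level of 7.30 on every array, while 3 of them rose (Fgf4, Dppa5a and Utf1) and 3 fell (Nanog, Klf4 and Tfcp2l1) in Mkl2-/- cells, against 9.27% of all genes passing; without single arrays 0 to 3 passed, with 0 when wild-type replicate 2 was left out. That level is the 95th percentile of 1027 olfactory receptor genes, which these cells should not express. Of 16 fibroblast markers, which would show carried-over feeders, 0 rose and Pdgfrb fell (limma, with 0 higher and 3 lower at an unadjusted p under 0.05). Their median level was 8.16 to 8.25 on Mkl2-/- arrays and 8.24 and 8.265 on wild-type arrays. Their summed level was 13.35 to 13.40 on Mkl2-/- arrays and 13.57 to 13.67 on wild-type arrays. That sum mostly follows the brightest marker, Vim, which read 12.61 to 12.73 in Mkl2-/- cells and 12.92 and 13.08 in wild-type cells. The sum alone is thus no measure of feeders. Over the 16 markers the differences ran from -0.32 to 0.05, with a median of -0.061. Col1a1 read 9.06, 8.99 and 9.07 in Mkl2-/- cells and 9.42 and 9.24 in wild-type cells. Its difference of -0.29 did not pass (limma adjusted p = 0.0901). A difference in carried-over feeders was not tested. Nothing in the sources says whether the cultures come from 1 or several lines per genotype, so p-values measure the spread between these cultures only.

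Slc23a1 stood well above wild type in every Mkl2-/- culture. Its feature (10458262, on chromosome 18) read 10.41, 10.45 and 10.16 in Mkl2-/- cells, against 8.79 and 8.60 in wild-type cells. Both groups were above background and did not overlap: 1.37 separated the lowest Mkl2-/- array from the higher wild-type array, while the arrays of a group spanned 0.29 in Mkl2-/- and 0.19 in wild type. The mean was 10.34 ± 0.16 in Mkl2-/- cells (SD, n = 3) and 8.70 ± 0.13 in wild-type cells (SD, n = 2), a difference of 1.65 ± 0.12 (SE) or 3.13-fold. By size of the difference Slc23a1 was number 6 of 19938 genes from the top, and 0.133% of the 13564 genes above background had a larger absolute difference. In such bulk RNA, more or fewer cells with a transcript and more or less transcript per cell cannot be told apart.

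The other transporter gene differed little. Slc23a2 (feature 10487906, chromosome 2) read 9.99, 10.03 and 9.93 in Mkl2-/- cells, against 10.12 and 10.08 in wild-type cells. Mkl2-/- arrays were all the lower ones, but the gap between the groups, 0.05, was smaller than the 0.10 spanned by the Mkl2-/- arrays. The difference was -0.12 ± 0.04 (SE, n = 3 and 2), or 1.08-fold, and 37.3% of the genes above background had a larger one. Thus Slc23a1 differed by 1.65, while Slc23a2 lay close to its wild-type level, with a difference of -0.12.

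Tet1 was higher in Mkl2-/- cells on each of its 3 features. The brightest (10369702, chromosome 10) read 12.83, 12.71 and 12.69 in Mkl2-/- cells, against 12.30 and 12.39 in wild-type cells. Feature 10369690 read 12.39, 12.29 and 12.23 in Mkl2-/- cells, against 11.86 and 11.90 in wild-type cells, and feature 10369688 read 12.05, 12.01 and 11.87 in Mkl2-/- cells against 11.56 and 11.58 in wild-type cells. On all 3 the groups did not overlap, with gaps of 0.30, 0.33 and 0.29. The differences were 0.40, 0.42 and 0.41 (SE 0.06, 0.06 and 0.06; n = 3 and 2), or 1.32-, 1.34- and 1.33-fold, so the features of the gene gave nearly the same size.

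Tet2 was also higher. Its feature (10502284, chromosome 3) read 9.68, 9.54 and 9.37 in Mkl2-/- cells, against 9.03 and 9.08 in wild-type cells. No wild-type array reached the lowest Mkl2-/- array, and the gap of 0.29 was close to the 0.31 that the Mkl2-/- arrays spanned. Among the 5 genes, Tet2 and Slc23a1 had the widest spread within Mkl2-/- (SD 0.16 each, n = 3). The difference was 0.48 ± 0.10 (SE), or 1.39-fold.

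Tet3 ran the other way. Feature 10545692 (chromosome 6) read 8.42, 8.58 and 8.41 in Mkl2-/- cells, against 9.12 and 9.03 in wild-type cells, and feature 10545682 read 8.09, 8.22 and 8.03 in Mkl2-/- cells against 8.81 and 8.85 in wild-type cells. Every Mkl2-/- array was lower than both wild-type arrays, with gaps of 0.45 and 0.59. The differences were -0.61 ± 0.07 and -0.72 ± 0.07 (SE, n = 3 and 2), or 1.52- and 1.64-fold lower. Of the genes above background, 3.35% had a larger absolute difference than the brighter feature, against 5.62% for Tet2 and 7.67% for Tet1.

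**Figure D1:**
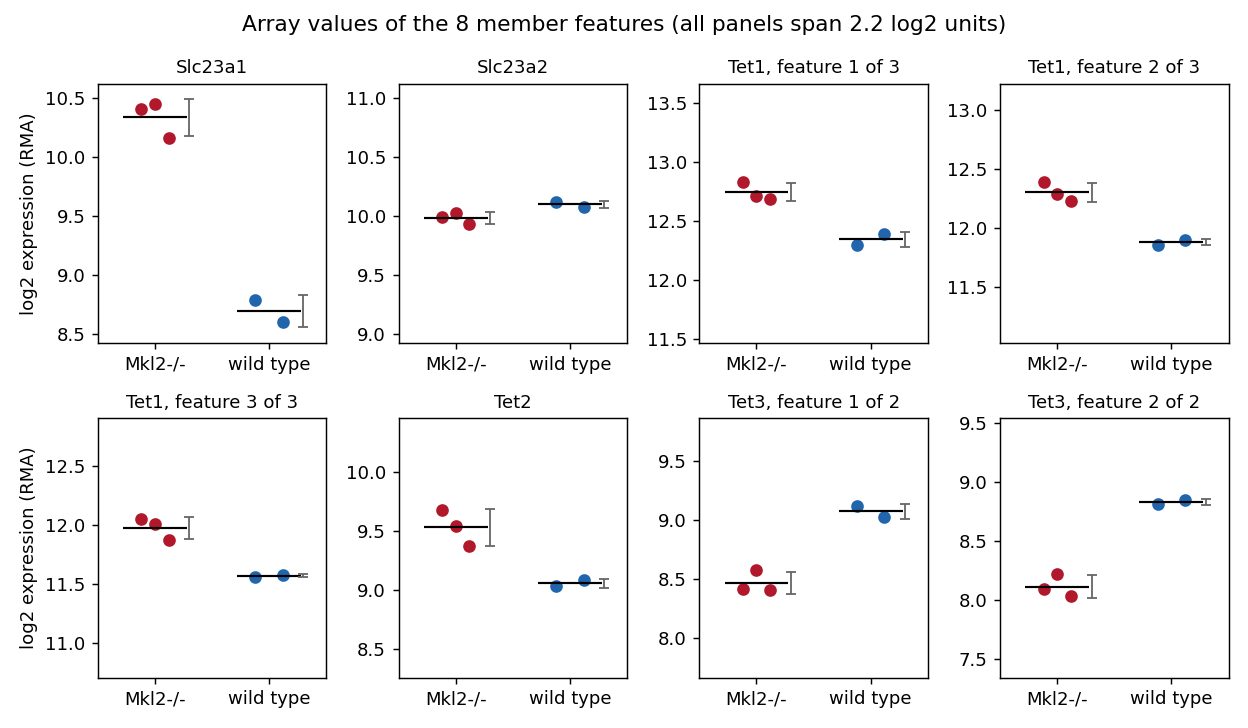
Log2 expression of the 8 features on each array, Mkl2-/- (red) left of wild type (blue); lines are group means, bars beside them SD (n = 3 and 2), and every panel spans the same height. Slc23a1, Tet1 and Tet2 lie higher and Tet3 lower in Mkl2-/-, and Slc23a2 differs by -0.12.

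The groups did not overlap on any of the 8 features, with 5 higher and 3 lower in Mkl2-/-. Over all features with 1 symbol, 33.8% did not overlap, 17.1% being higher and 16.7% lower. In the limma fit across all genes 3 of the 5 passed an adjusted p of 0.05 (Slc23a1, Tet1 and Tet3), 2 higher and 1 lower, where 9.27% of the 19938 genes passed, 2.99% higher and 6.28% lower; since the genes were chosen with this contrast known, nothing is read from either count. Replicate 3 was the lowest Mkl2-/- array on 8 of 8 features, by a median of 0.12 below the mean of replicates 1 and 2, whether the gene was higher or lower than in wild type. It was close to another Mkl2-/- array on some of them, such as the brightest feature of Tet1 (12.69 beside 12.71) and that of Tet3 (8.41 beside 8.42). Over the array, replicate 3 was the lowest in 34.6% of the features above background, with a median of -0.0050. Without it the differences were 1.74 for Slc23a1, -0.09 for Slc23a2, 0.43 for Tet1, 0.56 for Tet2 and -0.58 for Tet3.

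Tet3 lies in a stretch of chromosome 6 where many genes were lower in Mkl2-/- cells. Of the 24 expressed genes nearest to Tet3 on chromosome 6, 12 on each side from Pcgf1 to Exoc6b, 11 fell and 0 rose in Mkl2-/- cells (limma adjusted p under 0.05), or 45.8%, against 12.9% of all genes above background. The median difference of these neighbours was -0.35, while the 620 expressed genes of chromosome 6 had a median of 0.00. On one side Bola3, which acts in the assembly of iron-sulphur clusters, averaged 9.24 in Mkl2-/- cells and 9.84 in wild-type cells (-0.60 ± 0.06, adjusted p = 0.0177). On the other side the Riken gene B230319C09Rik did not pass (-0.020 ± 0.025), and next to it Dguok, a mitochondrial nucleoside kinase gene named after its value was seen, fell by 0.68 on the log2 scale (adjusted p = 0.00804). The neighbours' count was 0 without wild-type replicate 2 and 3 to 6 without each other array, with medians of -0.37 to -0.32 in these fits. The part of this shared shift in the Tet3 difference was not tested. The stretch had been noticed in earlier results of these data, so it is no independent observation.

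The neighbours of the other genes had median differences between 0.00 and 0.08. Near Slc23a1, 1 of 24 neighbours rose and 3 fell, with a median of 0.00; the genes on either side, Paip2 (0.020) and Mzb1 (0.018), did not pass. Slc23a2 had 1 neighbour that rose and 2 that fell (median 0.00), with Rassf2 at 0.00 and Tmem230 at 0.023 beside it. For Tet2 the counts were 2 and 1 (median 0.01), with Ppa2 (0.14) and Cenpe (0.13) on either side not passing. Around Tet1 the median was 0.08, and Slc25a16 (0.22, adjusted p = 0.0599) and Ccar1 (0.05) did not pass. The neighbour of Tet1 that rose was Srgn, 5 expressed genes away, which encodes the proteoglycan serglycin and averaged 11.93 in Mkl2-/- cells and 6.995, below background, in wild-type cells.

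**Figure D2:**
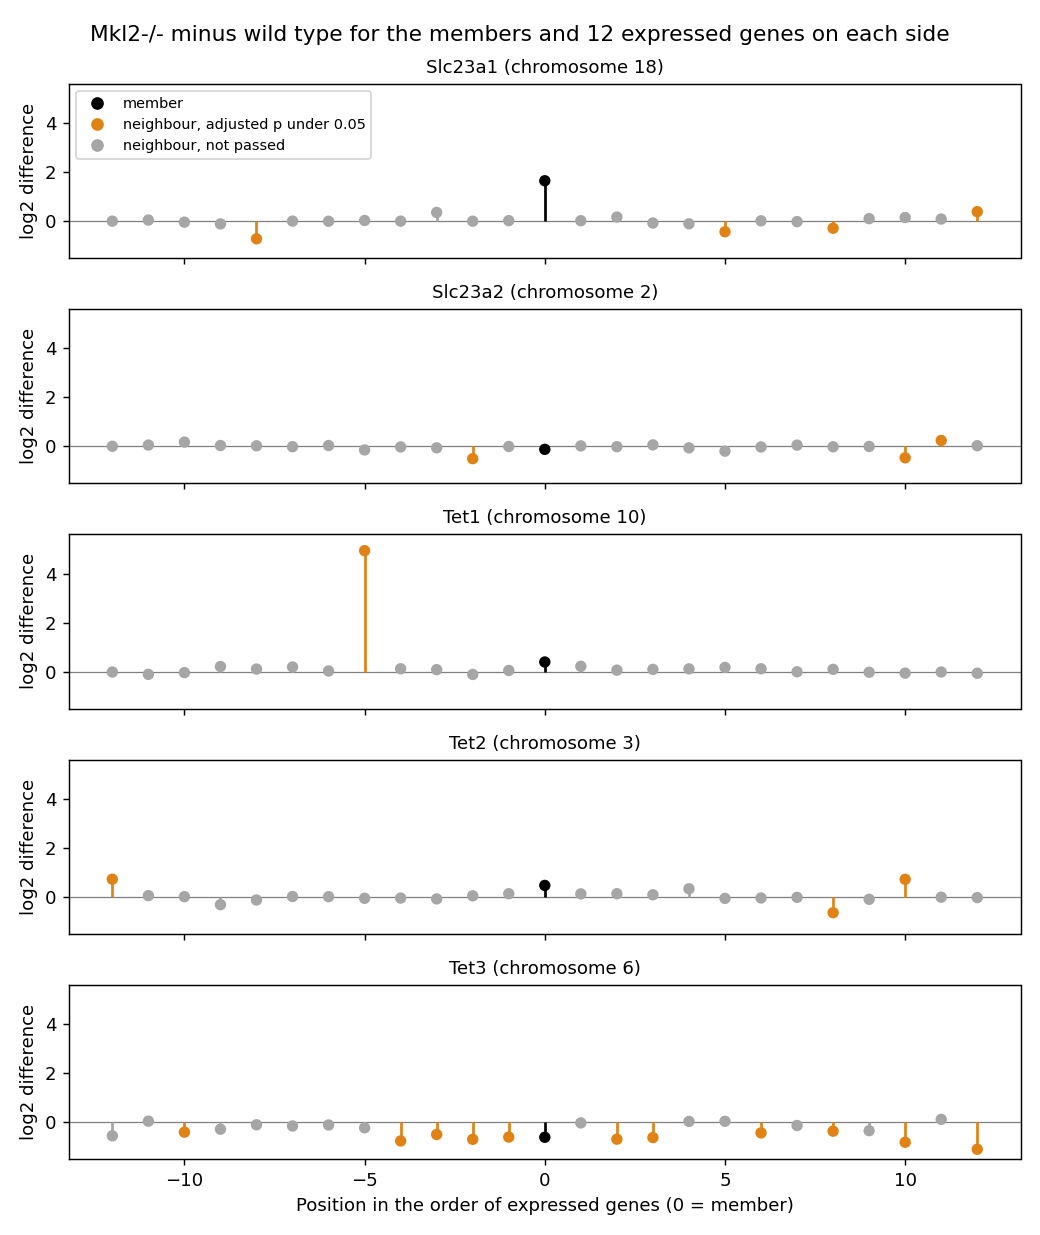
Mkl2-/- minus wild type (log2) for each gene (black) and the 12 expressed genes on each side of it in the annotation order; orange genes passed an adjusted p of 0.05 and grey ones did not. Orange points below 0 surround Tet3 (11 of 24), the tall orange point near Tet1 is Srgn, and the genes beside Slc23a1 lie near 0.

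Among genes that handle vitamin C in other ways, some glucose transporter and reductase genes fell and most genes did not pass. Of 25 listed genes 23 were measured: 5 fell, 1 rose and 17 did not pass, with a median difference of -0.012 beside 0.02 for all genes. Thus 26.1% passed, against 12.9% of the genes above background. Of all genes 9.27% passed, 6.28% lower and 2.99% higher. Slc2a3, encoding the glucose and dehydroascorbate transporter GLUT3, averaged 12.80 ± 0.05 in Mkl2-/- cells and 13.48 ± 0.01 in wild-type cells (SD; -0.68, limma adjusted p = 0.00712). The GLUT1 gene Slc2a1 differed by -0.29 (13.16 in Mkl2-/- and 13.45 in wild type; adjusted p = 0.0172) and Slc2a4, for GLUT4, by -0.31 (adjusted p = 0.0190). Thus 3 of the 6 listed glucose transporter genes fell, while Slc2a2 and Slc2a10 lay below background.

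Among enzymes that can reduce dehydroascorbate, Glrx and Gsto1 fell. Glrx, encoding glutaredoxin, read 9.13, 9.20 and 9.10 in Mkl2-/- cells, against 10.18 and 10.27 in wild-type cells, a difference of -1.08 ± 0.05 (SE; 2.12-fold lower, limma adjusted p = 0.00624). Gsto1, an omega-class glutathione transferase with this activity, fell by 0.23 on the log2 scale (adjusted p = 0.0158), while its relative Gsto2 lay below background in both genotypes and the thioredoxin reductase gene Txnrd1 (-0.012) did not pass. Gulo, the last enzyme of vitamin C synthesis in the mouse, averaged 8.02 in Mkl2-/- cells and 8.29 in wild-type cells (-0.27, adjusted p = 0.0871) and did not pass. The rise was in Grhpr, a glyoxylate and hydroxypyruvate reductase gene (0.12 ± 0.02 (SE), limma adjusted p = 0.0303). Without wild-type replicate 2, 0 genes of the list passed, and without wild-type replicate 1, 7 did; without Mkl2-/- replicates 1, 2 and 3 the counts were 2, 2 and 3.

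Most repair enzyme and TET partner genes did not pass the test, and those that did went in both directions. Of 24 measured genes of 27 listed, 4 fell, 2 rose and 18 did not pass (25.0% passed, against 9.27% of all genes and 12.9% of those above background), with a median of -0.033. Nanog, a pluripotency factor that binds TET1, fell by 1.14 on the log2 scale (11.04 ± 0.10 in Mkl2-/- and 12.18 ± 0.01 in wild type (SD); limma adjusted p = 0.00818). Parp1, a poly(ADP-ribose) polymerase gene active in base excision repair, fell by 0.33 (adjusted p = 0.0195), and Hmces, encoding a protein that shields abasic sites, fell by 0.34 (adjusted p = 0.0344). Apex1, the abasic site endonuclease gene, rose by 0.19 (adjusted p = 0.0204) and Wt1, a zinc finger factor known to bind TET2, rose by 0.41 (adjusted p = 0.0258). Of the CXXC domain genes, Cxxc5 fell by 0.29 (adjusted p = 0.0289) and Cxxc4 lay below background. Ogt, whose sugar transferase binds TET proteins, differed by -0.23 without passing (adjusted p = 0.145), and the glycosylase gene Tdg was not analysed here. Cxxc5 is also one of the 24 neighbours of Slc23a1. Hmces and Nanog lie on chromosome 6, as Tet3 does, though not among its 24 neighbours, and a shared shift was not tested. The list had 0 passing genes without wild-type replicate 2, and 0 to 1 without any other array.

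Of the genes that write or maintain DNA methylation, 4 of 6 did not pass. Dnmt3l, a cofactor of the de novo enzymes without activity of its own, rose to 11.28 ± 0.08 in Mkl2-/- cells, against 10.34 ± 0.01 in wild-type cells (SD; 0.94 ± 0.05 (SE), limma adjusted p = 0.00798). Uhrf2, which binds oxidised methylcytosine, fell by 0.27 (adjusted p = 0.0302). Dnmt1 (0.10), Dnmt3a (0.13), Dnmt3b (0.012) and Uhrf1 (-0.058) did not pass, which makes 1 rise and 1 fall among 6 genes. Thus 33.3% passed, against 9.27% of all genes and 12.9% of those above background. Without single arrays 0 to 1 of the 6 passed, with 0 when wild-type replicate 2 was left out.

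Of the other dioxygenases that share the cofactors of TET enzymes, 6 of 53 passed. Of the measured genes (55 were listed, and 51 lay above background), 2 rose and 4 fell, with a median of 0.012. That is 11.3%, against 9.27% of all genes and 12.9% of those above background. With trend and robust moderation 9 of the 53 passed, and after quantile normalization and cyclic loess 11 and 12 did. The histone demethylase genes Kdm3a (-0.62, adjusted p = 0.0346) and Kdm6b (-0.48, adjusted p = 0.0301) fell, as did Jmjd8 (-0.28, adjusted p = 0.0112, limma for all of these). Kdm3a lies on chromosome 6, as Tet3 does, though not among the 24 neighbours described above. A part of that shared shift in the Kdm3a difference was not tested. The collagen lysyl hydroxylase genes split, with Plod1 lower (-0.42, adjusted p = 0.0244) and Plod2 higher (0.29, adjusted p = 0.0302), and Jmjd6 rose by 0.20 (adjusted p = 0.0292). In 2-oxoglutarate metabolism 4 of 18 measured genes (20 listed) fell and 1 rose, with a median of -0.061. That is 27.8%, against 9.27% of all genes and 12.9% of those above background. Idh1, the cytosolic isocitrate dehydrogenase gene, averaged 10.23 ± 0.13 in Mkl2-/- cells and 11.10 ± 0.12 in wild-type cells (SD; -0.87, adjusted p = 0.0253). Its mitochondrial relative Idh2 differed by -0.22 (adjusted p = 0.0332), Psat1 by -0.22 (adjusted p = 0.0118) and Sdhc by -0.24 (adjusted p = 0.0377), while Glud1, the glutamate dehydrogenase gene, rose by 0.25 (adjusted p = 0.0184). Of both lists 0 genes passed without wild-type replicate 2, and at most 2 of either list without another array.

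Germline genes whose promoters are normally methylated, a class known to respond to TET activity and vitamin C in embryonic stem cells, passed in 1 of 20 measured cases (21 listed; 5.0%). Of the 20, 12 lay above background. None rose in the limma fit (0 at an adjusted p of 0.05; 3 higher and 4 lower at an unadjusted p under 0.05), where 2.99% of all genes rose. The median was -0.026. The gene that fell, Tex11, lay below background in both genotypes, so no fold is given. Dazl, an RNA-binding protein gene of germ cells, read 7.17, 7.15 and 7.17 in Mkl2-/- cells, against 7.18 and 7.39 in wild-type cells, with group means below background. Leaving out single arrays gave counts of 0 to 1, with 0 without wild-type replicate 2.

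Markers of primitive endoderm, an epithelial lineage that embryonic stem cells can give rise to, rose in 6 of 12 cases. In the limma fit 0 fell and 6 did not pass (8 higher and 0 lower at an unadjusted p under 0.05), and the median was 0.56. The factors Gata4 and Gata6 rose by 0.93 and 0.94, Lama1 by 1.45 and Pdgfra by 0.75; Cubn and Srgn, below background in wild type, also rose. The list was written with some of these rises known, so its count is a description and is not read against the 2.99% of all genes that rose. Sox17 (0.33), Sox7 (0.38), Amn (0.24), Hnf4a (0.047), Foxa2 (0.00) and Dab2 (-0.057) did not pass. The median level of the 12 was 8.64 to 8.74 on Mkl2-/- arrays and 8.025 and 7.86 on wild-type arrays. Their summed level was 13.13 to 13.40 on Mkl2-/- arrays and 11.94 to 11.96 on wild-type arrays. Most of that rise in the sum came from 1 gene, Srgn, which averaged 11.93 in Mkl2-/- cells and 6.995 in wild-type cells. At or below background were 0 markers on each Mkl2-/- array and 2 on each wild-type array. Within the Mkl2-/- arrays 5 of the 6 markers that rose were highest on replicate 3, where Slc23a1 was lowest of the 3. All 8 member features were lowest on that array, so its low place is not particular to Slc23a1. The part of primitive endoderm cells in the Slc23a1 difference was not tested. Without wild-type replicate 2, 0 of the 12 passed, and without each other array 2 to 4.

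**Figure D3:**
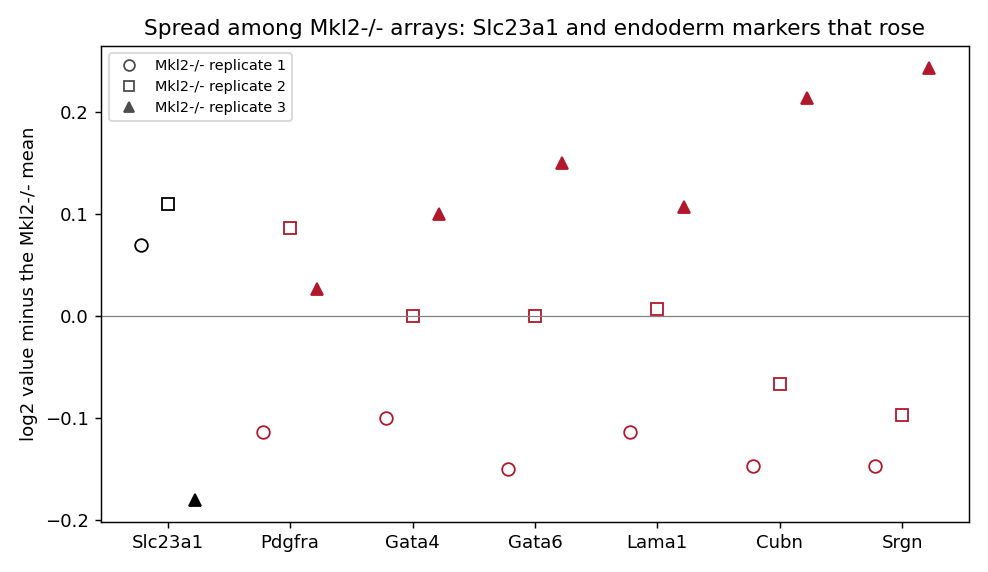
Log2 value minus the gene's Mkl2-/- mean on each Mkl2-/- array, for Slc23a1 (black) and the 6 primitive endoderm markers that rose (red). Replicate 3 (filled triangles) is the lowest array for Slc23a1 and the highest for Gata4, Gata6, Lama1, Cubn and Srgn.

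Genes with a pattern like that of Slc23a1 were sought by the root mean square distance of mean-centred log2 values over the 5 arrays, among genes above background. The nearest was Rab25, an epithelial small GTPase gene, at a distance of 0.13 (10.11 in Mkl2-/- and 8.57 in wild type), followed by the cytochrome P450 gene Cyp2b23 (0.14) and by Meg3, Mir377 and Mir382 of chromosome 12 (0.14 to 0.16). Mir382 lay below background in wild type. For Tet3, the other gene with a difference of at least 1.5-fold, the nearest were Trh, which lies on chromosome 6 too, at 0.022, then Anxa2, Ralgps2, Efnb2 and Cited1 at 0.031 to 0.036. Because the distance contains the group difference, near genes must differ by a similar amount, and these genes ran from -0.64 to -0.58. The same holds for the genes near Slc23a1. Trh encodes thyrotropin-releasing hormone.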

How the data were processed

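RNA of 3 Mkl2-/- and 2 wild-type cultures was measured on Affymetrix whole-transcript arrays. The deposited values are log2 intensities. Per the submitters' processing notes, the authors used Expression Console 1.1 from Affymetrix and RMA, which compresses differences of dim features. They run from 3.39 to 14.26 with array medians of 7.94 to 7.98, and the number of arrays limits the precision. No source used here gives other settings or any batch.

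For each of 19938 genes the feature with the highest mean was tested in R 4.3.3 with limma 3.58.1 (lmFit, then eBayes; 3 residual and 0.885 prior degrees of freedom; Benjamini-Hochberg over all genes; threshold 0.05, two-sided), after a test of the code on simulated data. Names and gene order came from a platform annotation and RefSeq (GRCm38.p6); the build behind the array is not stated, so no feature coordinates are given. Summed levels are log2 of the sum of linear values. The members, lists and tests were chosen with earlier results of these data known. Named were the members, fixed genes of each list, up to 4 passing genes of a list with the smallest p, the nearest neighbours and the 5 nearest patterns. Slc2a2, Slc2a4, Slc2a10, Gsto2, Txnrd1, Grhpr, Hmces, Plod2, Kdm3a, Sdhc, Pdgfrb, Vim, Col1a1, Dguok, the stem cell markers other than Nanog, the other primitive endoderm markers and Srgn as a neighbour were named after their values were seen. Alternatives were 2 normalizations, moderation with trend and robust settings, leaving out dim genes, the mean of a gene's features, a replicate block and each array left out. Figures were drawn with matplotlib 3.10.9.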

Additional observations from a re-analysis of the deposited data

How the results depend on the processing

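The differences of the 5 genes moved by less than the SD within groups under each alternative that could move them, with no change of sign; trend and robust moderation and the filter on dim genes cannot change a mean difference, the mean of features cannot change that of a gene with 1 feature, and the replicate block gives the values without Mkl2-/- replicate 3. After quantile normalization the differences were 1.68, -0.08, 0.39, 0.51 and -0.57 (Slc23a1, Slc23a2, Tet1, Tet2, Tet3). With single arrays left out they ran from 1.55 to 1.74 (Slc23a1), -0.14 to -0.09 (Slc23a2), 0.35 to 0.44 (Tet1), 0.40 to 0.56 (Tet2) and -0.66 to -0.56 (Tet3). Calls depended more on the processing. All genes past the threshold numbered 1848, of which 32.3% were higher, against 2906 (43.2% higher) after quantile normalization and 2949 (32.9% higher) after cyclic loess on the deposited values. Other dioxygenases then had 11 and 12 calls (9 with trend and robust moderation, against 6), germline genes 5 and 3, and fibroblast markers 2 and 3 (2 in the fit of genes above background alone). With the replicate number as a block, limma called 0 genes overall and in each of the 9 lists (3827 genes at an unadjusted p under 0.05). The labels do not say that a number pairs arrays. Deviations from the group means of same-numbered arrays correlated at -0.20 and 0.19. With 2 wild-type arrays these deviations are equal and opposite, so such correlations cannot show whether numbers pair arrays. With single arrays left out the calls ran from 0 to 963 over all genes, with 0 (4411 at an unadjusted p under 0.05) without wild-type replicate 2. They ran from 0 to 7 for ascorbate handling, 0 to 4 for primitive endoderm, 0 to 3 for stem cell markers, 0 to 2 for dioxygenases and for 2-oxoglutarate metabolism, 0 to 6 for the neighbours of Tet3 (0 under the block; these alternatives were chosen after seeing the data), and 0 to 1 for demethylation, methyltransferases, germline genes and fibroblast markers; the cause was not tested beyond the fewer arrays in each fit. All 38 listed genes that passed kept their sign under every alternative that gave them a value. Calls of the 5 genes are not counted here, since they were chosen with this contrast known. Signal near background limits what dim genes such as Dazl and Tex11 can show.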
